A study of Mus musculus with 61 samples.

Results

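The comparison described here is the start of neuron production in the fetal mouse midbrain. Libraries labelled midbrain (MB) at embryonic day 10.5 (E10.5) and E11.5, called the earlier stages, were set against those at E13.5 and E14.5, called the later stages. These are 8 of the 61 libraries in the deposited table, 2 at each of the 4 stages, and they were chosen by tissue and stage alone. All values are TPM (a transcript level per length, scaled to the same total in each library), tested as log2(TPM + 1).

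The study profiled RNA by sequencing in fetal forebrain, midbrain, hindbrain and liver at several stages up to birth, in a series whose title is about methylation of DNA in development. Total RNA from each dissected tissue went into stranded mRNA libraries. All groups are labelled by tissue and stage only, with no treatment or engineered allele. Strain and sex, and whether embryos were pooled, are unstated in the sources, and nothing says that the 2 libraries of a stage came from separate embryos, so each p-value measures only the spread between libraries. In bulk tissue, fewer cells of a type and less RNA per cell cannot be told apart.

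The midbrain forms from the middle vesicle of the neural tube. Its dividing progenitors line the ventricle and give off neurons that migrate outward: dopamine neurons from the floor plate, GABAergic neurons from lateral domains, and the glutamatergic neurons of the tectum, the dorsal visual and auditory centre. Signals that pattern it come from the isthmic organizer at the border with the hindbrain (Fgf8, Wnt1) and from the ventral midline (Shh), while Notch signalling between neighbouring cells holds progenitors back from becoming neurons.

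A difference was called where limma's moderated test, adjusted by Benjamini-Hochberg over all 18557 genes tested, gave a p under 0.05 and the log2 difference was at least 1 in size. Rose and fell are used for such genes, and ± gives limma's standard error of the difference stated. Each stage compared had 2 libraries, except E10.5 of forebrain, which had 1. Of 15672 protein-coding genes tested, 2239 (14.3%) were higher and 1105 (7.05%) lower at the later stages, and the median log2 difference over all of them was 0.08. After quantile normalization that median was -0.03, and higher genes made up 55.4% of the calls in place of 67%. In a principal component analysis of the 8 libraries the first component held 87.6% of the variance and ordered the libraries by stage. The 2 libraries of a stage differed by a median of 0.06 to 0.07 on the log2 scale.

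The libraries also fall into 2 sets that the labels do not name: Mir686 is listed at 0 in every E10.5 and E13.5 library and above 0 in every E11.5 and E14.5 library. Each side of the comparison has 1 stage from each set. Within the sets, E14.5 against E11.5 gave 2179 protein-coding genes higher (13.9%) and 1143 lower (7.29%), and E13.5 against E10.5 gave 2504 higher (16%) and 1181 lower (7.54%). These 2 comparisons share no library. Genes called higher in both numbered 1779, or 81.6% of the former and 71% of the latter, and genes called lower in both numbered 768, or 67.2% and 65%. Only 2 genes were called in opposite directions.

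**Figure D1:**
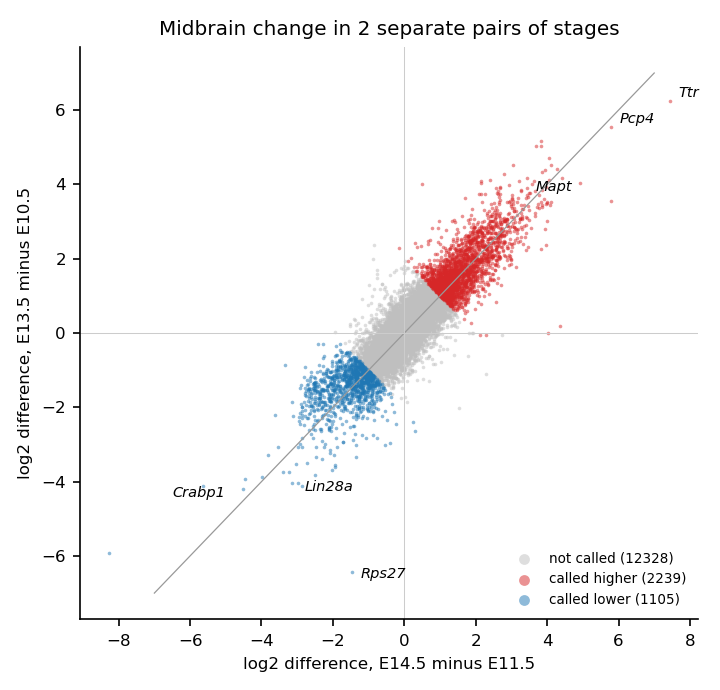
Each point is a protein-coding gene, placed by its log2 difference from E11.5 to E14.5 (x axis) and from E10.5 to E13.5 (y axis), with colour showing its call in the comparison of all 8 libraries. Most called genes lie near the diagonal, and Rps27 lies far from it, with a difference much more negative in the E10.5 to E13.5 pair than in the other.

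The 8 libraries listed 13985 to 14948 genes at 1 TPM or more, with 0.808 to 1.98% of the TPM total in haemoglobin genes and 3.96 to 9.09% in mitochondrial ones; TPM keeps no read depth, so depth is unknown. The tissue label was checked against markers. Otx2, the homeobox factor of forebrain and midbrain, stood at 259 to 283 TPM in the 4 earlier libraries and 154 to 173 in the 4 later ones, and the homeobox factor En2, of midbrain and anterior hindbrain, at 30.8 to 35.99 and 24.2 to 41.6 TPM. En1, its relative, ranged from 8.3 TPM at E11.5 to 25.1 at E14.5. The 14 Hox genes tested, which mark hindbrain and spinal cord, were at most 1.49 TPM except in replicate 1 of E14.5, where Hoxa2, Hoxb3, Hoxd3 and Hoxb2 stood at 3.55, 2.08, 2.06 and 1.70 TPM, against 0.77, 0.40, 0.08 and 0.31 in replicate 2. The forebrain gene Dlx1 was uneven between libraries: it stood at 9.53 and 8.09 TPM at E10.5, 10.8 and 7.83 at E11.5, 28.8 and 30.4 at E13.5 and 17.4 and 7.48 at E14.5. Alb and Afp, the main serum proteins of fetal liver, were at most 0.19 TPM at the other 3 stages but stood at 12.6 and 22.8 TPM (Alb) and 6.81 and 5.36 TPM (Afp) at E14.5. These marker genes were picked after their values were seen, and the part of such RNA in the results was not tested.

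All 44 tested genes of DNA replication and mitosis fell, against a background of 7.05% of protein-coding genes, with a median log2 difference of -2.03. All 44 also fell from E11.5 to E14.5 (background 7.29%), and 41 fell from E10.5 to E13.5 (background 7.54%). The largest falls were in Mcm3, a subunit of the replicative helicase, Cdc6, which loads that helicase, Rrm2, a ribonucleotide reductase subunit, and Birc5 (survivin), a subunit of the chromosomal passenger complex. Mcm3 stood at 235 and 248 TPM at E10.5, 164 and 157 at E11.5, 44.5 and 41.5 at E13.5 and 20.9 and 23.04 at E14.5, a log2 difference of -2.64 ± 0.08 (adjusted p = 1.67e-23). Birc5 stood at 246 and 248 TPM at E10.5, 202 and 201 at E11.5, 53.1 and 53.1 at E13.5 and 26.6 and 26.8 at E14.5, a difference of -2.53 ± 0.06 (adjusted p = 2.54e-25). Cdc6 and Rrm2 fell, at -2.57 ± 0.07 and -2.54 ± 0.08. In each of these genes the 4 later libraries lay below the 4 earlier ones, and the E14.5 libraries below those of E13.5.

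The fall came late within the series. From E10.5 to E11.5 the median of the 44 genes moved by -0.07, from E11.5 to E13.5 by -1.63, and from E13.5 to E14.5 by -0.84. Mki67, the marker of dividing cells, had the same plateau and stood at 194 and 188 TPM at E10.5, 169 and 189 at E11.5, 58.6 and 61.95 at E13.5 and 27.1 and 30.2 at E14.5, a difference of -2.13 ± 0.10 (adjusted p = 2.04e-18). Each of these steps crosses the 2 library sets, so stage and library set cannot be told apart within a step.

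The promoters of genes in this group are shown because the group moved together. Searched were the letters TTTGAA (the cell cycle gene homology region, CHR), TTTCGCGC or TTTGGCGC (E2F-type sites) and CCAAT (the CCAAT box), on both strands, in the 250 bases before the start of each gene, from RefSeq sequences on GRCm38.p6. Of the 44 genes, 36 had a promoter in that table. CCAAT was found in 29 of them (80.6%), against 36% of all 12153 protein-coding promoters with a tested gene. TTTGAA was found in 9 (25%, against 10.7%) and an E2F-type site in 4 (11.1%, against 1.15%). The 5 genes printed below were chosen, after their values were seen, for holding several of these letters. Capitals mark every match on either strand, and overlapping matches run together.
Mki67 (chr7:135716380-135716629, minus strand): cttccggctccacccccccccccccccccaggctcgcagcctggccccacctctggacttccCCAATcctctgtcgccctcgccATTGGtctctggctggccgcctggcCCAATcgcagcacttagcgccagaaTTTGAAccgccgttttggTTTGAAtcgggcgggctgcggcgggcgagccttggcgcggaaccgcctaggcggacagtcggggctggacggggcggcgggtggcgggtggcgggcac
Top2a (chr11:99024190-99024439, minus strand): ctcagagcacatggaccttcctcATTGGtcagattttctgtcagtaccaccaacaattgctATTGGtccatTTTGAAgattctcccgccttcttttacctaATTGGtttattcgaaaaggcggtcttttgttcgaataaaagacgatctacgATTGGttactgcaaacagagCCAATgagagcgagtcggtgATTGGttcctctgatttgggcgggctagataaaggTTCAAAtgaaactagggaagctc
Cdk1 (chr10:69352913-69353162, minus strand): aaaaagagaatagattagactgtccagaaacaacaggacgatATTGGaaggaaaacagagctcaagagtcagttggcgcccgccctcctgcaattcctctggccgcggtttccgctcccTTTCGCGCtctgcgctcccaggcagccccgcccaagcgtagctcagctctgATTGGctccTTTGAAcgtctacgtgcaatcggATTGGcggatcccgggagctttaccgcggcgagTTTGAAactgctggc
Mcm5 (chr8:75109259-75109508, plus strand): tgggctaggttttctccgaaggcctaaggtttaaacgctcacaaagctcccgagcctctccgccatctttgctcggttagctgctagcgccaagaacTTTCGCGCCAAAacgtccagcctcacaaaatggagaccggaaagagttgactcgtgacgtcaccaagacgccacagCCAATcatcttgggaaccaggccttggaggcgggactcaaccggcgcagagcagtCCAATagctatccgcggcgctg
Mcm6 (chr1:128359706-128359955, minus strand): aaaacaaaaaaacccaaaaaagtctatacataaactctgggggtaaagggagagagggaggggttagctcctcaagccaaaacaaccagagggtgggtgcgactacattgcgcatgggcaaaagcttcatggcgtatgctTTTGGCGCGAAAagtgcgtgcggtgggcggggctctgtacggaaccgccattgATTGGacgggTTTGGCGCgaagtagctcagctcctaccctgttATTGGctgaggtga
A match describes these letters and is not evidence of binding.

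Those 5 genes have different profiles. Top2a, the topoisomerase of dividing cells, stood at 348 and 371 TPM at E10.5, 533 and 540.4 at E11.5, 153 and 164 at E13.5 and 72.6 and 79.7 at E14.5, so its highest level was at E11.5. Cdk1, the kinase that drives entry into mitosis, was also highest at E11.5, at 267 and 266 TPM, and reached 52.2 and 52.6 at E14.5. Mcm5 and Mcm6, subunits of the helicase, had no such peak: Mcm6 was level, at 150.1 and 167 at E10.5 and 156 and 163 at E11.5, and Mcm5 went from 141 and 147 at E10.5 to 121 and 119.8 at E11.5 and 22.2 and 22.3 at E14.5. The log2 differences were -1.99 ± 0.07 for Top2a, -1.77 ± 0.05 for Cdk1, -2.15 ± 0.07 for Mcm5 and -1.76 ± 0.06 for Mcm6.

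Genes of neural progenitors changed less evenly. Of 23 tested, 9 fell, 3 rose and 11 did not pass (background 14.3% higher and 7.05% lower), with a median of -0.84. Nes (nestin), the intermediate filament of progenitors, stood at 289.5 and 264 TPM at E10.5, 327 and 352 at E11.5, 120.3 and 112 at E13.5 and 84.6 and 79.2 at E14.5, a difference of -1.64 ± 0.08 (adjusted p = 3.75e-18). Lix1 and Zbtb16 fell, at -1.83 ± 0.12 and -1.78 ± 0.11. The glutamate transporter Slc1a3, the growth factor Ptn and the radial glial lipid-binding protein Fabp7 rose, by 1.98 ± 0.07, 1.57 ± 0.10 and 1.18 ± 0.13. For Fabp7 the size depended on the stages: 0.56 from E11.5 to E14.5 and 1.81 from E10.5 to E13.5. The abundant filament Vim and the RNA-binding protein Msi1 did not pass the size threshold, at -0.84 ± 0.08 and -0.74 ± 0.09. The list's median lay above that of the cell cycle list, but no test compared the lists.

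**Figure D2:**
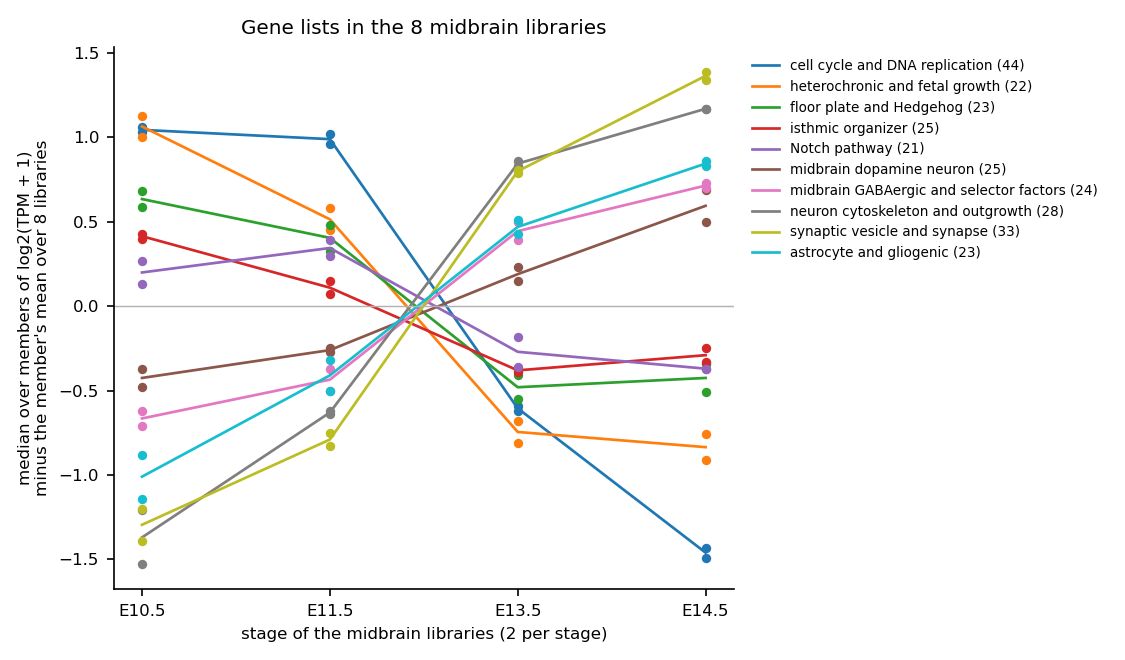
Each point is 1 library and 1 gene list: the median over the list's tested members of log2(TPM + 1) minus that member's mean over the 8 libraries, with lines through the mean of the 2 libraries of a stage and the number of members in brackets. The cell cycle list stays near 1.0 at E10.5 and E11.5 and falls to -1.49 and -1.43 at E14.5, while the neuronal lists rise from E10.5 on.

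Of 23 genes of proneural factors and neuronal commitment, 5 rose, 3 fell and 15 did not pass (background 14.3% higher and 7.05% lower). The counts depended on the stages: 4 rose and 6 fell from E11.5 to E14.5 (background 13.9% and 7.29%), and 8 rose and 1 fell from E10.5 to E13.5 (16% and 7.54%). Neurog1, a bHLH factor that starts neuron production, stood at 42.3 and 40.00 TPM at E10.5, 30.3 and 32.4 at E11.5, 10.5 and 9.24 at E13.5 and 8.67 and 7.54 at E14.5, a difference of -1.89 ± 0.08 (adjusted p = 2.51e-19), with no overlap between the sides. Neurod4 fell, at -1.42 ± 0.09 and Olig3 at -1.28 ± 0.12. Olig3, a factor of several progenitor domains, stood at -2.27 ± 0.16 from E11.5 to E14.5 and at -0.30 ± 0.16 from E10.5 to E13.5, where it did not pass. Neurog2, the related factor of many midbrain progenitors, did not pass at -0.51 ± 0.14. It stood at 39.9 and 27.6 TPM at E10.5, 68.6 and 67.9 at E11.5, 46.3 and 40.8 at E13.5 and 27.5 and 23.1 at E14.5, highest at E11.5 among these stages. Its difference was -1.4 ± 0.19 from E11.5 to E14.5, which passed, and 0.38 ± 0.19 from E10.5 to E13.5, which did not.

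Several genes of newly committed cells had this same hump. Hes6, a bHLH factor that opposes Hes1, stood at 90.8 and 78.8 TPM at E10.5, 188 and 178 at E11.5, 129 and 123 at E13.5 and 118 and 112 at E14.5, a difference of -0.05 ± 0.07 over all 8 libraries. From E10.5 to E11.5 it rose by 1.11 ± 0.10 (adjusted p = 3.05e-10). Btg2, an antiproliferative gene of neurogenic progenitors, rose by 1.04 ± 0.16 in that step (adjusted p = 1.71e-06, or 0.92 without replicate 2 of E10.5) and moved by -0.99 ± 0.16 from E11.5 to E13.5 (adjusted p = 2.61e-06), which is just under the size threshold. The zinc-finger factor Insm1 and the bHLH factor Nhlh1 were also highest at E11.5 among these stages, at 31.1 and 33.02 and 41.7 and 39.5 TPM. A comparison of the earlier with the later pair cannot show such a hump, since both sides average over it. The steps from E10.5 to E11.5 and from E11.5 to E13.5 cross the library sets, so stage and library set cannot be told apart in it. At E12.5, which entered no comparison, the proneural list summed to 1426 and 1459 TPM, against 1143 and 1159 at E11.5.

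The promoters of Hes6 and Nhlh1 are shown as examples of this profile. The E-box letters CAGATG or CAGCTG, the kind bound by proneural bHLH factors, were found in 8 of 20 promoters of this list (40%), against 21.1% of all 12153. Capitals mark the match, and the window is again the 250 bases before the RefSeq start on GRCm38.p6.
Hes6 (chr1:91414039-91414288, minus strand): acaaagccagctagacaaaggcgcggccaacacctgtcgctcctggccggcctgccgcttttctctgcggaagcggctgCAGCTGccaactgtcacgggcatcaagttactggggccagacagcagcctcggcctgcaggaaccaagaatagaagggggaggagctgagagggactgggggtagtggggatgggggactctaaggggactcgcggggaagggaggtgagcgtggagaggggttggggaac
Nhlh1 (chr1:172057597-172057846, minus strand): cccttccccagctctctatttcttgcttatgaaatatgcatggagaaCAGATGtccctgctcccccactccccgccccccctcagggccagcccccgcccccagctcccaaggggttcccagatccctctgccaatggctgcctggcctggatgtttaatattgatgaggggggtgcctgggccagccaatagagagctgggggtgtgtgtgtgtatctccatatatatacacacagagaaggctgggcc
Each of the 2 windows holds 1 E-box match. The letters CACNAG (the N-box, with N for any base) were searched in the same way in the Notch pathway list. They were found in 5 of 15 promoters (33.3%), near the 35.6% of all 12153.

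The members of this list that rose act mostly in postmitotic neurons. Neurod6 rose by 4.39 ± 0.14, from 0.04 to 0.5 TPM to 18.8 to 32.5 TPM, and Neurod2 by 3.0 ± 0.11. Ebf3 and Sox4 rose by 1.42 ± 0.14 and 1.15 ± 0.06. Tbr1, a factor of forebrain glutamatergic neurons, passed at 1.36 ± 0.22, but not from E11.5 to E14.5, at 0.29 ± 0.32, and its sides overlapped: it stood at 7.2 and 9.6 TPM at E13.5 and 1.13 and 3.99 at E14.5. The forebrain gene Dlx1 was uneven in the same libraries, and the part of forebrain RNA in this result was not tested.

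In the Notch pathway 2 of 21 tested genes fell, 1 rose and 18 did not pass (background 14.3% higher and 7.05% lower), with a median of -0.62. The share that fell was near its background. Both genes that fell are Hes repressors, effectors of the pathway: Hes5 stood at 134 and 126 TPM at E10.5, 181 and 184 at E11.5, 73.7 and 63.5 at E13.5 and 54.1 and 59.7 at E14.5, a difference of -1.29 ± 0.10 (adjusted p = 1.59e-12, with -0.92 from E10.5 to E13.5), and Hes3 at 10.5 and 11.1 TPM at E10.5, 3.31 and 4.84 at E11.5, 0.61 and 0.47 at E13.5 and 0.35 and 0.72 at E14.5, a difference of -2.33 ± 0.18 (adjusted p = 6.06e-13). Hes1, of the same family, did not pass at -0.84 ± 0.10. Among ligands, Dll1 stood at 48.1 and 47.4 TPM at E10.5, 75.1 and 82.8 at E11.5, 37.2 and 35.04 at E13.5 and 33.3 and 33.2 at E14.5. Among these stages it was highest at E11.5, and it did not pass at -0.81 ± 0.08, with -1.22 from E11.5 to E14.5 and -0.39 from E10.5 to E13.5. Dll3 and Jag1 did not pass either, at -0.83 ± 0.06 and -0.78 ± 0.09, whereas Jag2 rose by 1.17 ± 0.06 (adjusted p = 2.52e-17). The receptors Notch1, Notch2 and Notch3 did not pass, at -0.54 ± 0.11, -0.46 ± 0.10 and -0.99 ± 0.09. Between E11.5 and E14.5, 6 members fell (background 7.29%), and between E10.5 and E13.5 2 did (background 7.54%).

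Genes of neuronal structure rose. Of 28 genes of the neuronal cytoskeleton and outgrowth 25 rose (background 14.3%), with a median of 2.03, and of 33 genes of the synapse 29 rose, with a median of 2.17. Mapt (tau), the axonal microtubule protein, stood at 38.5 and 28.9 TPM at E10.5, 63.2 and 65.7 at E11.5, 454 and 451 at E13.5 and 718 and 709.5 at E14.5, a difference of 3.59 ± 0.10 (adjusted p = 3.11e-24). Rtn1, Nsg2 and the adhesion molecule Ncam1 rose by 3.14 ± 0.12, 3.01 ± 0.11 and 2.64 ± 0.10. The neurofilament genes Nefl and Nefm did not pass, at 0.71 ± 0.11 and -0.44 ± 0.11. Of the synaptic genes, Camk2b, a calcium-dependent kinase subunit, stood at 1.65 and 1.11 TPM at E10.5, 3.26 and 3.35 at E11.5, 50.3 and 49.1 at E13.5 and 79.7 and 84.5 at E14.5, a difference of 4.35 ± 0.07 (adjusted p = 3.03e-28). Sv2a and Syt4, of synaptic and secretory vesicles, rose by 3.46 ± 0.08 and 3.09 ± 0.12.

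Of 40 genes of ion channels and transmitter receptors, 34 rose (background 14.3%) and 6 did not pass. Glra2, the fetal glycine receptor subunit, stood at 0.19 and 0.16 TPM at E10.5, 1.17 and 0.94 at E11.5, 18.6 and 20.6 at E13.5 and 34.2 and 32.4 at E14.5, a difference of 4.1 ± 0.06 (adjusted p = 2.75e-30). Gria2, the AMPA receptor subunit that limits calcium entry, stood at 4.65 and 2.94 TPM at E10.5, 19.2 and 20.2 at E11.5, 103 and 114 at E13.5 and 163 and 179 at E14.5, a difference of 3.79 ± 0.14 (adjusted p = 4.15e-21). The NMDA receptor subunit Grin2b and the metabotropic receptor Grm5 rose by 3.57 ± 0.08 and 3.51 ± 0.07. Every one of these 4 genes was higher in each E11.5 library than in each E10.5 library, and higher again at the later stages. The chloride importer Slc12a2 did not pass, at -0.03 ± 0.07, and neither did the sodium channel Scn8a, at 0.44 ± 0.08.

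Most regulators of neuronal RNA processing rose. Of 20 tested, 13 rose and 1 fell (background 14.3% higher and 7.05% lower). The gene that fell was Ptbp1, the splicing repressor of progenitors: it stood at 464 and 471 TPM at E10.5, 365 and 378 at E11.5, 156 and 146 at E13.5 and 114 and 125 at E14.5, a difference of -1.63 ± 0.07 (adjusted p = 7.01e-20). Its neuronal relative Ptbp2 did not pass, at 0.19 ± 0.07. Rbfox1, a splicing factor of neurons, and Celf5, Celf4 and Celf6 rose by 3.8 ± 0.12, 2.85 ± 0.10, 2.67 ± 0.09 and 2.33 ± 0.08. Of 8 genes of the machinery that represses neuronal genes, Ctdsp1 and Rcor2 fell, by -1.18 ± 0.06 and -1.01 ± 0.08, and 6 did not pass. The fall of Rcor2 lies at the size threshold and is -0.999, just short of it, without replicate 2 of E10.5.

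Among 27 genes of Polycomb and chromatin remodelling, 8 rose, 2 fell and 17 did not pass (background 14.3% higher and 7.05% lower), and the share that fell was near its background. Chd5, a remodeller of neurons, rose by 4.48 ± 0.08 (adjusted p = 1.35e-27), from 0.58 to 0.89 TPM to 25.9 to 55.2 TPM. Actl6b, the neuronal subunit that takes the place of Actl6a in the BAF complex, stood at 9.09 and 6.46 TPM at E10.5, 26.6 and 25.5 at E11.5, 131 and 125 at E13.5 and 179 and 169 at E14.5, a difference of 3.29 ± 0.10 (adjusted p = 1.41e-22). Bcl11b and Bcl11a, also BAF subunits, rose by 2.3 ± 0.11 and 1.86 ± 0.10. The Polycomb genes Cbx2 and Eed fell, at -1.34 ± 0.07 and -1.18 ± 0.05, and the methyltransferase Ezh2 lay just under the size threshold at -0.97 ± 0.07.

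Some genes of the signalling centres fell. Of 23 tested genes of the floor plate and the Hedgehog pathway, 11 fell (background 7.05%) and 12 did not pass, with a median of -0.84. Shh, the ligand of the ventral midline, stood at 33.4 and 25.6 TPM at E10.5, 21.4 and 22.02 at E11.5, 6.92 and 5.05 at E13.5 and 4.27 and 5.2 at E14.5, a difference of -2.06 ± 0.12 (adjusted p = 4.52e-16). Gli1, a target and effector of the pathway, stood at 27.1 and 29.2 TPM at E10.5, 18.4 and 20.2 at E11.5, 4.09 and 4.08 at E13.5 and 4.09 and 3.41 at E14.5, a difference of -2.31 ± 0.08 (adjusted p = 2.11e-21). In both genes the 4 later libraries lay below the 4 earlier ones, and the E13.5 and E14.5 values of Gli1 were alike. The effectors Gli2 and Gli3 fell, at -1.75 ± 0.12 and -1.46 ± 0.12, the transducer Smo at -1.47 ± 0.06 and the coreceptor Gas1 at -1.53 ± 0.10. The ventral homeobox genes Nkx2-9 and Nkx6-2 fell, at -2.62 ± 0.17 and -2.34 ± 0.11. The receptor and target Ptch1 did not pass, at -0.67 ± 0.13, nor did the floor plate genes Foxa2, at -0.85 ± 0.18, and Ntn1, at -0.01 ± 0.11.

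Of 25 tested genes of the isthmic organizer, 7 fell, 1 rose and 17 did not pass (background 14.3% higher and 7.05% lower). Its ligand Fgf8 stood at 8.87 and 11.4 TPM at E10.5, 4.89 and 6.24 at E11.5, 0.85 and 0.89 at E13.5 and 0.96 and 0.53 at E14.5, a difference of -2.24 ± 0.18 (adjusted p = 2.48e-12). Wnt1, the other ligand of this border, stood at 12.4 and 12.4 TPM at E10.5, 5.67 and 7.01 at E11.5, 2.61 and 2.17 at E13.5 and 2.0 and 2.3 at E14.5, a difference of -1.6 ± 0.12 (adjusted p = 1.63e-13). In both genes each E11.5 library lay below each E10.5 library, and each E13.5 library lower again. Fgf17 fell, at -1.55 ± 0.25, its receptor gene Fgfr2 at -1.35 ± 0.09, and the pathway's target Etv4 (with -0.62 from E11.5 to E14.5) and feedback inhibitor Il17rd at -1.43 ± 0.10 and -1.3 ± 0.10. Among the factors that place the border, Otx2 did not pass, at -0.74 ± 0.16, nor did En1, En2, Pax2 and Pax5, at 0.58 ± 0.17, -0.09 ± 0.19, 0.12 ± 0.07 and 0.51 ± 0.19. Otx1 fell by 1.18 ± 0.17. Gbx2, a factor of the hindbrain side, rose: it stood at 3.49 and 3.38 TPM at E10.5, 8.18 and 6.55 at E11.5, 29.8 and 19.7 at E13.5 and 17.2 and 9.46 at E14.5, a difference of 1.62 ± 0.21 (adjusted p = 4.68e-08), with 0.73 from E11.5 to E14.5 and 2.51 from E10.5 to E13.5.

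**Figure D3:**
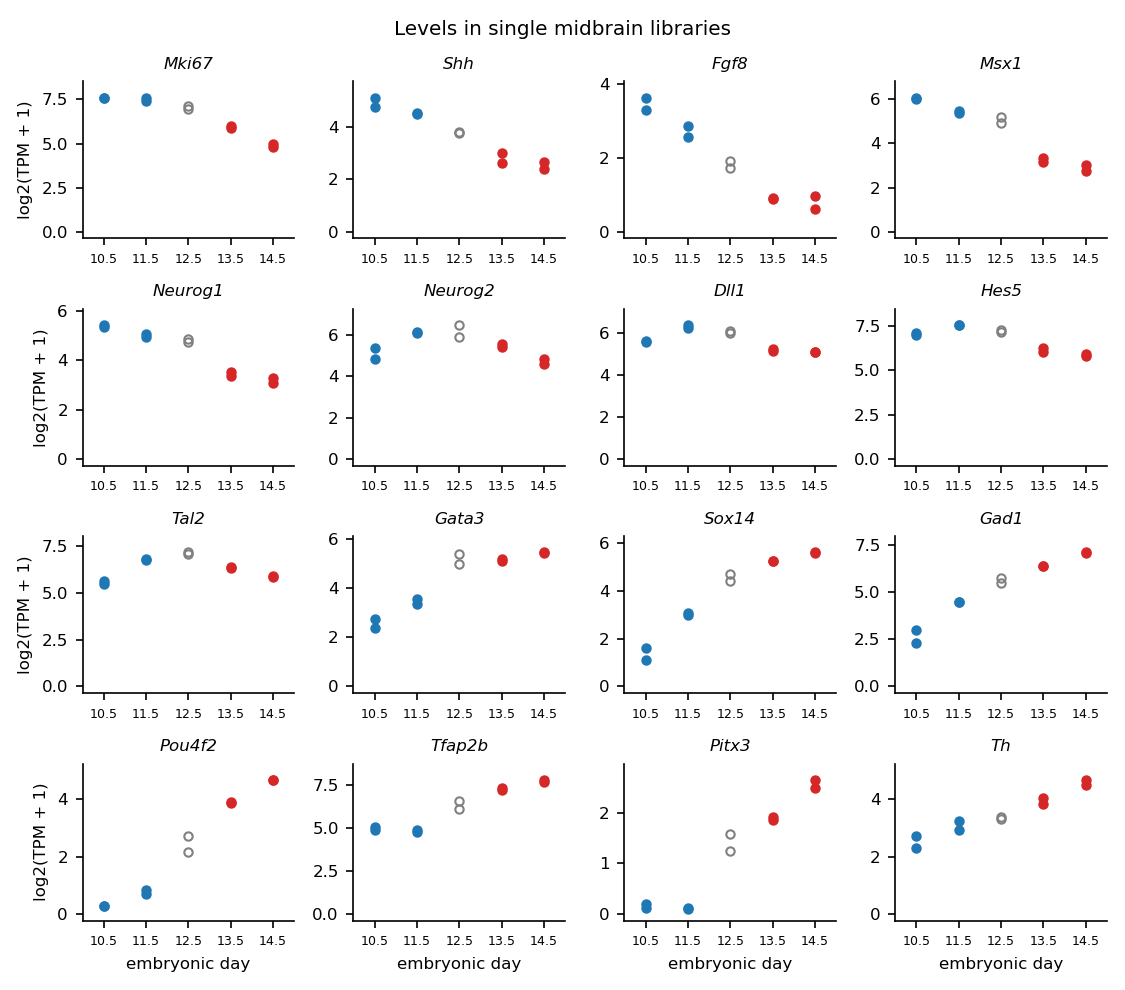
Points show log2(TPM + 1) of 16 genes in single midbrain libraries by embryonic day, blue for the earlier stages, red for the later ones and open grey for E12.5, which entered no comparison. Shh, Fgf8 and Msx1 fall from E10.5 on, Neurog2, Dll1 and Tal2 are higher in the middle, and Pou4f2 and Pitx3 rise from near 0.

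In the Wnt pathway 15 of 41 tested genes fell and 3 rose (background 14.3% higher and 7.05% lower), and 10 fell from E11.5 to E14.5 (background 7.29%). Besides Wnt1, the secreted regulators Dkk2 and Rspo1 and the repressor Tcf7l1 fell, by -2.21 ± 0.14, -1.84 ± 0.14 and -1.78 ± 0.10. The inhibitor Wif1, the factor Tcf7l2 and the receptor Fzd1 rose by 1.51 ± 0.14, 1.36 ± 0.33 and 1.02 ± 0.08. Fzd1 was 0.984 to 0.999, short of the size threshold, when some single libraries were left out. Ctnnb1 (beta-catenin) did not pass, at -0.01 ± 0.05, nor did the feedback target Axin2, at -0.59 ± 0.08. In the BMP pathway 4 of 27 fell and 2 rose (background 7.05% lower and 14.3% higher). Msx2 and Msx1, homeobox targets of BMP, fell, at -2.95 ± 0.13 and -2.68 ± 0.12, Id3 at -1.72 ± 0.08 and the ligand Bmp4 at -1.15 ± 0.13. Id4, of the same inhibitor family as Id3, rose by 1.77 ± 0.07. Of 15 genes of retinoic acid 4 fell and 3 rose (background 14.3% higher and 7.05% lower), and among them Crabp1 had the largest fall under the naming rule, which leaves out haemoglobin genes. Crabp1, which binds retinoic acid in the cytoplasm, stood at 1325 and 1454 TPM at E10.5, 908 and 886 at E11.5, 92.6 and 60.7 at E13.5 and 44.7 and 33.2 at E14.5, a difference of -4.35 ± 0.13 (adjusted p = 4.67e-23). Crabp2 and the receptors Rarg and Rxra fell, at -2.51 ± 0.10, -1.69 ± 0.11 and -1.33 ± 0.10, while the degrading enzyme Cyp26b1 and the synthetic enzyme Aldh1a2 rose by 2.47 ± 0.17 and 2.37 ± 0.12.

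Of 25 tested genes of midbrain dopamine neurons, 10 rose, 2 fell and 13 did not pass (background 14.3% higher and 7.05% lower). Many members are low, and with a pseudocount of 5 only 4 rose. Most genes that rose act in the postmitotic neuron. Pitx3, the homeobox factor of these neurons, stood at 0.14 and 0.08 TPM at E10.5, 0.07 and 0.09 at E11.5, 2.62 and 2.79 at E13.5 and 5.27 and 4.59 at E14.5, a difference of 2.1 ± 0.13 (adjusted p = 3.5e-15). Slc6a3, the dopamine transporter, stood at 0.08 and 0.1 TPM at E10.5, 0.12 and 0.17 at E11.5, 1.73 and 2.21 at E13.5 and 6.28 and 4.38 at E14.5, a difference of 1.95 ± 0.12 (adjusted p = 3.54e-15). Both were near 0 at E10.5 and E11.5 and higher at E14.5 than at E13.5. Th, tyrosine hydroxylase, the rate-limiting enzyme of dopamine synthesis, was already present at the earlier stages: it stood at 5.58 and 3.88 TPM at E10.5, 8.46 and 6.59 at E11.5, 15.6 and 13.1 at E13.5 and 24.6 and 21.8 at E14.5, a difference of 1.47 ± 0.17 (adjusted p = 3.01e-09). Th is also expressed by other neurons. Nr4a2, the nuclear receptor needed by these neurons, rose by 1.18 ± 0.10, the decarboxylase Ddc by 1.28 ± 0.19, the vesicular transporter Slc18a2 by 1.22 ± 0.13 and the autoreceptor Drd2 by 1.26 ± 0.09.

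The factors that specify dopamine progenitors behaved differently. Lmx1a, Lmx1b, Foxa1 and Foxa2 did not pass, at -0.15 ± 0.16, -0.39 ± 0.18, -0.47 ± 0.20 and -0.85 ± 0.18. Msx1, expressed in the progenitor domain and dorsally, stood at 66.6 and 64.00 TPM at E10.5, 40.99 and 43.04 at E11.5, 8.99 and 7.88 at E13.5 and 7.17 and 5.63 at E14.5, a difference of -2.68 ± 0.12 (adjusted p = 2.89e-19). Aldh1a1, which marks dopamine progenitors and later a subset of the neurons, moved in opposite directions in the 2 pairs of stages: it stood at 4.84 and 2.59 TPM at E10.5, 1.05 and 0.9 at E11.5, 1.24 and 1.0 at E13.5 and 10.03 and 7.52 at E14.5. It rose by 2.3 ± 0.22 from E11.5 to E14.5 and fell by 1.11 ± 0.22 from E10.5 to E13.5. Its value over all 8 libraries, 0.59 ± 0.16, did not pass and describes neither pair.

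**Figure D4:**
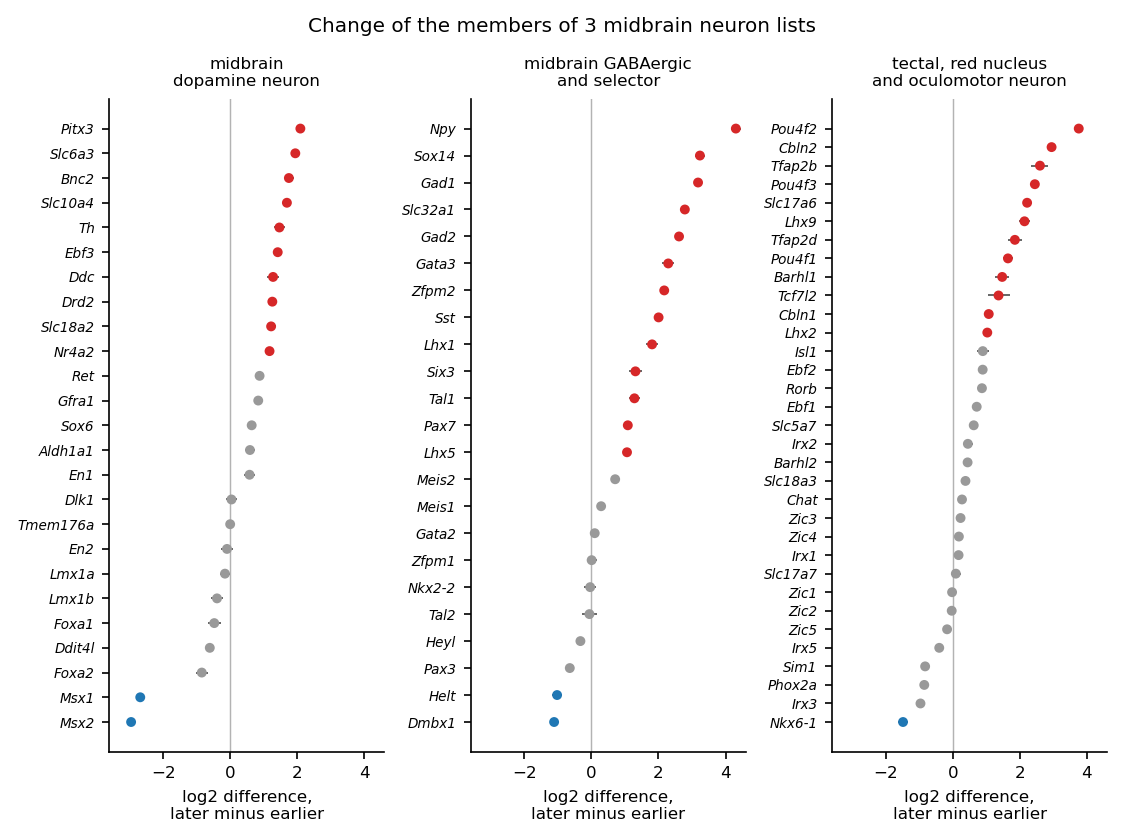
Points show the log2 difference of later minus earlier stages for the members reported here of the dopamine (25), GABAergic and selector (23) and tectal, red nucleus and oculomotor (33) lists, with bars for 1 standard error, red for genes called higher, blue for genes called lower and grey for the rest. Npy, Pou4f2 and Pitx3 lead their lists, and Msx2, Dmbx1 and Nkx6-1 stand at the low ends.

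Of 24 tested genes of GABAergic neurons and their selector factors, 14 rose, 2 fell and 8 did not pass (background 14.3% higher and 7.05% lower), with a median of 1.18. Gad1, which makes GABA, stood at 6.93 and 3.94 TPM at E10.5, 21.5 and 21.2 at E11.5, 81.9 and 83.3 at E13.5 and 136 and 137 at E14.5, a difference of 3.18 ± 0.12 (adjusted p = 9.79e-21). The second enzyme Gad2 and the vesicular transporter Slc32a1 rose by 2.61 ± 0.12 and 2.79 ± 0.08. The neuropeptide genes Npy and Sst, found in subsets of these neurons, rose by 4.31 ± 0.16 and 2.0 ± 0.11. These 3 genes of GABA synthesis and loading were already higher at E11.5 than at E10.5: the step was 1.84 ± 0.17 for Gad1 (adjusted p = 3.09e-10). That step crosses the library sets.

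The selector factors did not move alike. Helt and Dmbx1, of progenitors, fell, at -1.03 ± 0.14 and -1.12 ± 0.11, but Helt was -0.95 without replicate 1 of E11.5 and Dmbx1 -0.64 from E11.5 to E14.5. Tal2, an early postmitotic selector, stood at 48.4 and 43.6 TPM at E10.5, 115 and 110.3 at E11.5, 80.4 and 82.9 at E13.5 and 59.4 and 56.9 at E14.5, and did not pass at -0.06 ± 0.23. Among these 4 stages it was highest at E11.5: it rose by 1.27 ± 0.32 from E10.5 to E11.5 (adjusted p = 0.00142), and the change from E11.5 to E14.5 was -0.94 ± 0.32. Gata2, its partner, did not pass at 0.10 ± 0.10. Gata3 and Tal1, the later factors, rose by 2.29 ± 0.19 and 1.28 ± 0.15. Sox14, a factor of GABAergic neurons of diencephalon and midbrain, stood at 2.08 and 1.16 TPM at E10.5, 6.85 and 7.39 at E11.5, 37.4 and 37.1 at E13.5 and 47.9 and 47.2 at E14.5, a difference of 3.24 ± 0.15 (adjusted p = 1.04e-18). Lhx1, Lhx5, Zfpm2 and Pax7 rose by 1.81 ± 0.19, 1.06 ± 0.13, 2.17 ± 0.08 and 1.08 ± 0.12, while Pax3 did not pass, at -0.65 ± 0.11.

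Of 34 tested genes of tectal, red nucleus and oculomotor neurons, 12 rose (background 14.3%), 1 fell and 21 did not pass. Pou4f2, a POU factor of tectal projection neurons, stood at 0.22 and 0.2 TPM at E10.5, 0.63 and 0.77 at E11.5, 13.6 and 13.9 at E13.5 and 24.5 and 24.5 at E14.5, a difference of 3.76 ± 0.10 (adjusted p = 8.58e-25). Its relatives Pou4f3 and Pou4f1 rose by 2.45 ± 0.08 and 1.64 ± 0.14. Tfap2b stood at 31.8 and 28.7 TPM at E10.5, 26.3 and 28.1 at E11.5, 161 and 143 at E13.5 and 220.3 and 200.2 at E14.5, a difference of 2.6 ± 0.25 (adjusted p = 1.2e-10), and Tfap2d rose by 1.85 ± 0.20. The vesicular glutamate transporter Slc17a6 stood at 8.04 and 5.67 TPM at E10.5, 28.4 and 27.2 at E11.5, 63.9 and 62.4 at E13.5 and 75.8 and 72.7 at E14.5, a difference of 2.22 ± 0.12 (adjusted p = 4.03e-17). The homeobox genes Lhx9, Barhl1 and Lhx2 rose by 2.14 ± 0.16, 1.47 ± 0.21 and 1.03 ± 0.11, and Cbln2 and Cbln1, secreted synapse organizers, by 2.95 ± 0.13 and 1.07 ± 0.11.

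The genes of oculomotor neurons and of cholinergic transmission named next did not pass. The factor Phox2a stood at -0.85 ± 0.08, and the cholinergic genes Chat, Slc18a3 and Slc5a7 at 0.27 ± 0.06, 0.38 ± 0.10 and 0.62 ± 0.08. Phox2a stood at 3.06 and 3.4 TPM at E10.5, 0.61 and 0.69 at E11.5, 0.28 and 0.29 at E13.5 and 0.87 and 0.48 at E14.5, with its highest level at E10.5. The progenitor factor Nkx6-1 fell by 1.49 ± 0.15. The regional factors Zic1 and Irx1 did not pass, at -0.02 ± 0.13 and 0.17 ± 0.14. Zic1 was lower at E11.5 (127 and 131 TPM) than at E10.5 or E13.5 (246 and 221, and 222 and 197 TPM). E11.5 belongs to a different library set from E10.5 and E13.5, so stage and library set cannot be told apart for this drop.

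The heterochronic list holds genes that time early development, and 14 of its 22 tested members fell (background 7.05%), with a median of -1.58. Lin28a, the RNA-binding protein that blocks let-7 processing, stood at 33.6 and 40.9 TPM at E10.5, 13.4 and 15.2 at E11.5, 1.4 and 1.24 at E13.5 and 0.69 and 0.76 at E14.5, a difference of -3.59 ± 0.08 (adjusted p = 2.19e-26). Hmga2, a let-7 target and chromatin protein, stood at 134 and 163 TPM at E10.5, 59.9 and 68.4 at E11.5, 10.1 and 10.3 at E13.5 and 5.15 and 6.75 at E14.5, a difference of -3.48 ± 0.11 (adjusted p = 1.4e-22). Sall4 and Prtg (protogenin) fell, at -3.27 ± 0.16 and -2.64 ± 0.11. From E10.5 to E11.5, 9 members fell (background 0.747%), while 1 of the 44 cell cycle genes did. No test compared the lists, and stage and library set cannot be told apart in this step. In that step the difference was -1.32 ± 0.11 for Lin28a (adjusted p = 3.38e-11) and -1.2 ± 0.16 for Hmga2 (adjusted p = 1.7e-07). Lin28b, Trim71, Igf2bp1, Igf2bp2 and Igf2bp3, of the same network, fell, at -1.68 ± 0.09, -2.03 ± 0.09, -2.1 ± 0.15, -2.0 ± 0.08 and -1.67 ± 0.07. The imprinted noncoding gene H19 fell, at -1.85 ± 0.12, and its neighbour Igf2 lay just under the size threshold at -0.99 ± 0.15. Mycn did not pass, at -0.54 ± 0.07.

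Of 16 tested genes of DNA methylation, the mark that the series' title concerns, 4 fell, 1 rose and 11 did not pass (background 14.3% higher and 7.05% lower). Uhrf1, which brings the maintenance enzyme to replicated DNA, stood at 204 and 217 TPM at E10.5, 213 and 226 at E11.5, 52.4 and 52.96 at E13.5 and 28.8 and 29.3 at E14.5, a difference of -2.43 ± 0.10 (adjusted p = 1.13e-19). Hells, a remodeller needed for methylation, fell, at -2.28 ± 0.11, the repair glycosylase Mbd4 at -1.13 ± 0.07 and the de novo enzyme Dnmt3b at -1.33 ± 0.09. The maintenance enzyme Dnmt1 did not pass, at -0.69 ± 0.08: it stood at 140.3 and 140.4 TPM at E10.5, 109 and 116 at E11.5, 75.8 and 72.3 at E13.5 and 82.2 and 80.1 at E14.5. The other de novo enzyme Dnmt3a stood at 81.2 and 76.5 TPM at E10.5, 78.6 and 78.6 at E11.5, 78.2 and 74.95 at E13.5 and 73.5 and 78.4 at E14.5 and did not pass, at -0.05 ± 0.08. The oxidases Tet1, Tet2 and Tet3 did not pass, at 0.66 ± 0.12, 0.42 ± 0.09 and 0.13 ± 0.10. The gene that rose was the methyl-binding factor Zbtb38, by 1.69 ± 0.07. From E10.5 to E11.5 Uhrf1 and Hells did not pass, at 0.06 ± 0.14 and -0.21 ± 0.16.

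Genes of glia were measurable in part at these stages. Of 23 tested genes of astrocytes and gliogenesis, 14 rose (background 14.3%) and 9 did not pass. Nfix, a factor of the switch to gliogenesis, rose by 3.37 ± 0.12, the metabolic enzymes Aldoc and Aldh1l1 by 3.38 ± 0.10 and 3.19 ± 0.10, and the matrix protein Bcan by 3.17 ± 0.14. Aldh1l1 stood at 2.1 and 1.89 TPM at E10.5, 3.62 and 2.96 at E11.5, 25.4 and 23.5 at E13.5 and 39.2 and 42.5 at E14.5. Dbi and Apoe, abundant in radial glia, did not pass, at -0.30 ± 0.06 and 0.07 ± 0.10. Of 14 genes of the oligodendrocyte lineage, Olig1 and Sox8 rose, by 1.7 ± 0.12 and 1.22 ± 0.11 (from E10.5 to E13.5 neither passed, at 0.84 and 0.76), Myrf and Pdgfra fell, by -1.53 ± 0.10 and -1.12 ± 0.09, and 10 did not pass. The share that rose equals the background of 14.3%. Pdgfra is also a gene of mesenchyme, and 11 of 16 mesenchyme markers fell in the same comparison; their part in its fall was not tested.

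Glycolytic genes moved in both directions. Of 23 tested, 9 fell and 4 rose (background 14.3% higher and 7.05% lower). The number that fell was 5 from E11.5 to E14.5 (background 7.29%) and 15 from E10.5 to E13.5 (background 7.54%). The lactate exporter Slc16a3, the hexokinase Hk2, lactate dehydrogenase Ldha and the transporter Slc16a1 fell, by -2.66 ± 0.13, -2.12 ± 0.10, -1.81 ± 0.07 and -1.47 ± 0.09. Ldha stood at 781 and 989 TPM at E10.5, 643 and 649 at E11.5, 226 and 227 at E13.5 and 201 and 207 at E14.5. Aldoc, Eno2, Pfkp and Hk1, isoforms of neurons or glia, rose, the last 3 by 2.5 ± 0.09, 2.39 ± 0.08 and 1.54 ± 0.06. Aldoa and Pgk1 did not pass, at -0.75 ± 0.07 and -0.75 ± 0.06. Of 43 genes of axon guidance, 15 rose and 2 fell (background 14.3% higher and 7.05% lower), and 1 to 3 fell when single libraries were left out. The receptors Robo2, Unc5d, Ephb1 and Plxna4 rose by 2.56 ± 0.07, 2.49 ± 0.08, 2.32 ± 0.08 and 2.04 ± 0.11, whereas the ligands Slit3 and Efnb1 fell, at -1.47 ± 0.10 and -1.01 ± 0.08. Efnb1 lies at the size threshold and was -0.96 to -0.99, short of it, when some single libraries were left out. Of 26 genes of neuropeptides and neurotrophins 16 rose (background 14.3%), among them the granin Scg2, by 3.26 ± 0.12, its relative Scg5, by 2.36 ± 0.08, and the peptide convertase Pcsk2, by 2.2 ± 0.07. Ntf3 fell by 1.13 ± 0.09. Of 15 genes of cell cycle exit 3 rose and 1 fell, near the background of 14.3% and 7.05%. The Cdk5 activator Cdk5r1 led the rises, at 2.92 ± 0.08, and the Cdk inhibitor Cdkn1c did not pass, at -0.17 ± 0.08.

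Among protein-coding genes that reached a mean of 5 TPM and whose sides did not overlap, leaving out haemoglobin and predicted genes, the largest rises were in Ttr, Pcp4 and Ptgds. Pcp4, a calmodulin regulator of neurons, stood at 2.2 and 2.01 TPM at E10.5, 2.94 and 2.6 at E11.5, 143 and 145 at E13.5 and 200.5 and 218 at E14.5, a difference of 5.67 ± 0.17 (adjusted p = 3.54e-23). Ttr (transthyretin), a product of choroid plexus and liver, stood at 2.04 and 2.14 TPM at E10.5, 1.81 and 1.17 at E11.5, 256 and 213 at E13.5 and 404 and 456 at E14.5, a difference of 6.85 ± 0.31 (adjusted p = 8.28e-19), and Ptgds, of meninges, rose by 4.67 ± 0.21. Of 9 liver markers 4 rose (background 14.3%), but 2 to 6 did when single libraries were left out, and Alb overlapped between the sides. Without the E14.5 libraries 1 rose, and 1 did from E10.5 to E13.5 (background 16%). Of 8 choroid plexus markers 3 rose (background 14.3%). Tmem130, Chl1, Ablim3, Myt1l, Eef1a2, Caly and Rit2 complete the rises with Chd5, Neurod6, Camk2b, Npy and Glra2, at 3.86 to 4.43. Of these, the adhesion molecule Chl1 and the factor Myt1l are typical of neurons. The largest falls after Crabp1 were in Fndc3c1, by -4.19 ± 0.14, Rps27, Hemgn, Lin28a and Hapln1, the last by -3.57 ± 0.17. Rps27 encodes a ribosomal protein with near-identical copies. Its difference was -6.44 ± 0.88 from E10.5 to E13.5, which passed, and -1.45 ± 0.88 from E11.5 to E14.5, which did not. Hemgn and Slc4a1 are genes of red blood cell precursors. Slc4a1, Igdcc3, Fignl2, Hmga2, Acp5, Sall4, Lrtm1, Prrx2 and the cartilage collagen Col9a1 complete the 15 largest falls, at -3.56 to -3.02.

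Counts for the single steps were uneven. From E10.5 to E11.5, 508 protein-coding genes were higher (3.24%) and 117 lower (0.747%), 625 in all (3.99%). From E11.5 to E13.5, 1331 were higher (8.49%) and 974 lower (6.21%), 2305 in all (14.7%). From E13.5 to E14.5, 78 were higher (0.498%) and 48 lower (0.306%), 126 in all (0.804%). The steps differ in length, and each crosses the library sets. Among the largest changes, Hmga1b, Sap18 and mt-Co3 were among the top rises of both the E10.5 to E11.5 and the E13.5 to E14.5 step, as 3 of the 5 top rises in each. Sap18 stood at 13.6 and 14.3 TPM at E10.5, 83.95 and 77.8 at E11.5, 12.8 and 21.01 at E13.5 and 60.5 and 48.9 at E14.5, high in the E11.5 and E14.5 libraries and low in the others. Of the others, Sybu, an axonal transport protein, rose by 2.38 ± 0.17 from E10.5 to E11.5, and the signalling inhibitor Wfikkn1 fell by 2.65 ± 0.17. From E11.5 to E13.5, Ttr, Pcp4, Neurod6, Ptgds and Npy rose most, by 3.93 to 6.57. From E13.5 to E14.5, Alb rose by 4.15 ± 0.97, and the forebrain genes Fezf2 and Tbr1 fell, at -1.53 ± 0.22 and -1.52 ± 0.32. Without replicate 1 of E14.5 the Tbr1 value was -0.90 (adjusted p = 0.0612).

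The same stages were compared in forebrain (7 libraries, 1 of them at E10.5) and hindbrain (8 libraries). The difference between the midbrain change and the forebrain change was called for 236 protein-coding genes with a midbrain change that was more positive (1.51%) and 299 with one that was more negative (1.91%), 535 in all (3.41%). Against hindbrain, 132 were more positive (0.842%) and 147 more negative (0.938%), 279 in all (1.78%). Within E11.5 and E14.5 alone the counts were 746 against forebrain (4.76%) and 412 against hindbrain (2.63%), and within E10.5 and E13.5 they were 579 (3.69%) and 410 (2.62%).

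Cell cycle genes fell further in midbrain than in forebrain. The difference was called for 30 of the 44 (background 1.91%), and the median change was -2.03 in midbrain, -0.89 in forebrain and -2.37 in hindbrain. Against hindbrain limma called 0 of the 44 (background 0.938% more negative). At an unadjusted limma p under 0.05, 29 had a midbrain change that was less negative and 1 had one that was more negative. This lean differed between the pairs of stages. The median midbrain minus hindbrain difference was -0.19 over E11.5 and E14.5 alone and 0.72 over E10.5 and E13.5 alone. Mki67 changed by -2.13 ± 0.10 in midbrain, -2.52 ± 0.10 in hindbrain and -0.61 ± 0.11 in forebrain, where it did not pass. The midbrain minus forebrain difference was -1.52 ± 0.15 (adjusted p = 2.11e-09).

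Some proneural genes differed from each region. Against forebrain the midbrain change was more negative for 9 of 23 and more positive for 2; against hindbrain it was more positive for 9 and more negative for 2, and 12 and 12 were not called (background 1.51% and 1.91% against forebrain, 0.842% and 0.938% against hindbrain). Over E11.5 and E14.5 alone, 3 of the 23 were more negative than in forebrain and 3 more positive (background 4.76% for both directions together). The median midbrain minus forebrain difference was -0.54 there. Over E10.5 and E13.5, where forebrain has 1 library at E10.5, that median was -0.95. Neurog2 moved by 1.2 ± 0.15 in forebrain, -0.51 ± 0.14 in midbrain and -1.54 ± 0.14 in hindbrain. The difference was -1.71 ± 0.20 against forebrain (adjusted p = 9.42e-08) and 1.03 ± 0.19 against hindbrain (adjusted p = 0.000208). The latter was 0.90 without replicate 2 of E10.5, 0.98 without replicate 1 of E13.5, 0.97 without replicate 1 of E14.5 and 0.77 over E11.5 and E14.5 alone, all short of the size threshold. Insm1 had the same order, at 1.19 ± 0.08, 0.11 ± 0.07 and -1.15 ± 0.07. Of 33 genes of the synapse, 2 were more negative than in forebrain and 1 than in hindbrain, and limma called 0 as more positive in either (12 and 8 at an unadjusted p under 0.05).

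**Figure D5:**
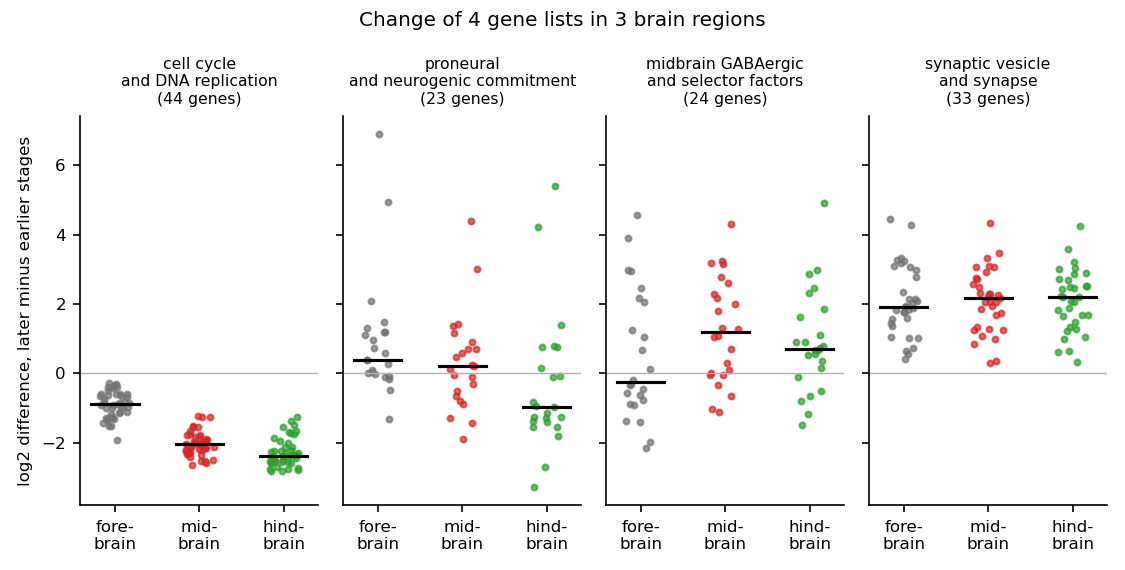
Each point is a gene, placed by its log2 difference of later minus earlier stages in forebrain, midbrain and hindbrain, for 4 lists with the number of genes in brackets, and bars mark the medians. The cell cycle medians are -0.89, -2.03 and -2.37 in that order, the proneural ones 0.40, 0.22 and -0.98, and the synapse medians 1.91, 2.17 and 2.20.

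The genes of single midbrain neuron types differed from both regions in part. Of the dopamine list 9 were more positive than in forebrain (background 1.51%), and 4 were more positive (0.842%) and 1 more negative (0.938%) than in hindbrain. Pitx3 moved by -0.03 ± 0.15 in forebrain and -0.10 ± 0.13 in hindbrain, so that the midbrain difference was 2.12 ± 0.20 (adjusted p = 7.9e-10) and 2.2 ± 0.19 (adjusted p = 3.56e-10). Of the GABAergic and selector list 9 were more positive and 2 more negative than in forebrain, with Gata3 at 2.74 ± 0.28 (adjusted p = 5.38e-09), and 4 more positive and 2 more negative than in hindbrain, with Sox14 at 1.37 ± 0.21 (adjusted p = 1.17e-05). Of the tectal list 10 were more positive and 3 more negative than in forebrain, and 8 more positive and 0 more negative than in hindbrain, against the same backgrounds. Tfap2b fell in forebrain by -2.92 ± 0.28, and its midbrain minus forebrain difference, 5.52 ± 0.38 (adjusted p = 1.91e-12), was the largest of all genes under the naming rule. Pou4f2 differed by 3.73 ± 0.14 from forebrain (adjusted p = 1.23e-17) and 2.5 ± 0.13 from hindbrain (adjusted p = 1.74e-14).

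By the naming rule the other large differences were of mixed kinds. Against forebrain, Tfap2a, Pax7 and Crym were more positive, by 3.55 ± 0.14, 3.08 ± 0.17 and 2.76 ± 0.22, and the hormone gene Trh, Lrtm1, Sst, Neurod6 and the guidance receptor Epha5 more negative, by -3.78 ± 0.39, -2.75 ± 0.14, -2.57 ± 0.17, -2.51 ± 0.21 and -2.49 ± 0.14. Against hindbrain, Dlx6, Ttr, Kirrel2, Dlx1 and Pcp4 were more positive, by 3.57 ± 0.42, 3.53 ± 0.43, 3.07 ± 0.23, 2.53 ± 0.47 and 2.52 ± 0.24, and Rps27, Lrtm1, Olig2, Aqp1 and Pdlim3 more negative, by -3.33 ± 0.88, -2.73 ± 0.13, -2.48 ± 0.18, -2.15 ± 0.29 and -2.14 ± 0.25. Lrtm1, a gene of leucine-rich repeats, is in both: it stood at 14.4 and 14.9 TPM at E10.5, 5.12 and 4.88 at E11.5, 0.16 and 0.04 at E13.5 and 0.05 and 0.06 at E14.5 in midbrain and moved by -0.42 ± 0.10 in forebrain and -0.44 ± 0.09 in hindbrain. Dlx1 and Dlx6 are forebrain genes that were uneven between replicates: Dlx6 stood at 9.81 and 3.96 TPM at E14.5. Over E11.5 and E14.5 alone, the differences from hindbrain of Dlx1 and Rps27 were 1.16 ± 0.66 and -0.84 ± 1.25 and did not pass. Crym, Olig2, Aqp1, Pdlim3 and Dlx1 did not pass in midbrain itself, at 0.36, -0.41, 0.93, 0.35 and 0.97. Crym fell in forebrain, by -2.40. In hindbrain Olig2, Aqp1 and Pdlim3 rose, by 2.07, 3.08 and 2.48, and Dlx1 fell, by -1.56. Ttr and Pcp4 rose in hindbrain too, by 3.32 and 3.15. Sst, Neurod6 and Epha5 rose in midbrain, by 2.0, 4.39 and 1.28, and more in forebrain, by 4.58, 6.9 and 3.77.

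Markers of other cell types moved in the same comparison. Of 11 erythroid markers 10 fell, and their summed level was 207 to 256 TPM in the earlier libraries and 83.3 to 98.4 in the later ones. The haemoglobin genes exchanged: embryonic Hbb-bh1 and Hba-x fell, at -7.11 ± 0.20 and -4.88 ± 0.19, and adult Hbb-bs rose by 4.5 ± 0.23. Of 16 markers of mesenchyme, meninges and neural crest 11 fell and 4 rose, with sums of 500.4 to 825 and 303 to 419.5 TPM. Twist1 and Alx4 fell, at -2.77 ± 0.14 and -2.49 ± 0.14. Of 9 markers of surface epithelium 5 fell, with Krt8 at -2.2 ± 0.14, and of 14 microglial markers only Tmem119 did, by -1.94 ± 0.11. Muscle and cartilage markers fell for 2 of 11. Of 14 endothelial markers 1 rose and 2 fell, and of 8 pericyte markers 2 rose (background 14.3% higher and 7.05% lower). Leaving out 1 library lowered the endothelial falls or the pericyte rises to 1. Summed liver markers went from 14.97 to 17.8 TPM to 233 to 530.1 TPM, of which Ttr made up most at the later stages, and summed forebrain markers, of which 3 of 15 rose, from 111 to 135 TPM to 177 to 257 TPM. Of these 15 forebrain markers, 6 rose from E10.5 to E13.5 (background 16%) and 1 from E11.5 to E14.5 (background 13.9%). From E13.5 to E14.5, a step that crosses the library sets, 7 of them fell (background 0.306%). Of the 18 hindbrain markers only Gbx2 rose, of 9 ganglion markers 1 rose and 3 fell, and of 11 stress genes 2 fell. The part of these cells in the neural results was not tested.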

How the data were processed

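RNA was measured by stranded mRNA sequencing, per the labels' protocols. The authors deposited 1 table of TPM for 43346 identifiers, and the submitters' processing notes name STAR 2.4.0k, RSEM 1.2.23 and mm10; sequencing depth is not given in the sources used here. Of 61 libraries, 57 had a tissue and stage from the labels, and 4 whose labels conflict were left out. log2(TPM + 1) was fitted with limma 3.58.1 (R 4.3.3), with 1 mean per tissue and stage over the 57 libraries, a trended prior and 26 residual degrees of freedom, for 18557 genes with 1 TPM or more in at least 2 libraries. Adding 1 understates the change of low genes. SE is limma's standard error. The later against earlier value is the mean of both later stages minus that of both earlier ones. Unless said otherwise, each named gene is among the 4 largest called or 2 most abundant uncalled members of its list (any member for 9 midbrain lists), the 15 largest rises or falls (haemoglobin and predicted genes left out), or the 5 largest per step or region difference. The members and lists were chosen with earlier results of these data known. A few list members are counted but not reported by name here. The fit was tested on simulated data. Alternatives covered scaling, pseudocounts, filters, left-out libraries, stage pairs and a replicate block.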

Additional observations from a re-analysis of the deposited data

Results flagged for a closer look

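The change from the earlier to the later stages differed between midbrain and forebrain for 535 protein-coding genes and between midbrain and hindbrain for 279, by limma's test of the difference itself with Benjamini-Hochberg adjustment. Against forebrain the midbrain change was more positive for the tectal factors Tfap2b (5.52) and Pou4f2 (3.73), and for Tfap2a (3.55), Pax7 (3.08), Crym (2.76), Gata3 (2.74) and Pitx3 (2.12) on the log2 scale. It was more negative for Trh (-3.78), Lrtm1 (-2.75), Sst (-2.57), Neurod6 (-2.51), Epha5 (-2.49), Neurog2 (-1.71) and Mki67 (-1.52). Crym did not pass in midbrain itself, and Sst, Neurod6 and Epha5 rose there, but by less than in forebrain. The forebrain has 1 library at E10.5.

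Against hindbrain the midbrain change was more positive for Dlx6 (3.57), Ttr (3.53), Kirrel2 (3.07), Dlx1 (2.53), Pcp4 (2.52), Pou4f2 (2.5), Pitx3 (2.2), Sox14 (1.37) and Neurog2 (1.03). It was more negative for Rps27 (-3.33), Lrtm1 (-2.73), Olig2 (-2.48), Aqp1 (-2.15) and Pdlim3 (-2.14). Dlx1, Olig2, Aqp1 and Pdlim3 did not pass in midbrain itself. Over E11.5 and E14.5 alone the differences of Rps27 (-0.84) and Dlx1 (1.16) did not pass. The Neurog2 value was short of the size threshold when some single libraries were left out, down to 0.90. Trh, the thyrotropin-releasing hormone gene, stood at 31.2 and 29.5 TPM at E10.5, 6.18 and 8.59 at E11.5, 1.25 and 1.91 at E13.5 and 1.43 and 0.96 at E14.5 in midbrain.

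The 2 midbrain libraries at E12.5, which entered no comparison, held transcripts of fetal liver. Alb stood at 107 and 77.4 TPM and Afp at 207 and 109 TPM there, against at most 0.19 TPM in the libraries of E10.5, E11.5 and E13.5. The E12.5 points in the plot of genes by stage come from these libraries, and the part of liver RNA in them was not tested.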

How the results depend on the processing

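Across the alternatives, 269 values of named genes (each a gene in a comparison) gave 5682 recomputed values in all. Of these, 5506 stayed on the same side of the threshold, 135 no longer passed and 41 passed only under the alternative. At least 1 such change was found for 69 of the 269. Among called values 0 changed sign, and changes of sign among values not called were not counted. A pseudocount of 5 ended 38 calls. It left 1356 genes higher and 657 lower in the later against earlier comparison, 236 called from E10.5 to E11.5, 1232 from E11.5 to E13.5, 31 from E13.5 to E14.5, 205 against forebrain and 99 against hindbrain. A pseudocount of 0.1 gave 1297, 377, 1033 and 628 for E10.5 to E11.5, E13.5 to E14.5, forebrain and hindbrain, and quantile normalization gave 402 for E10.5 to E11.5, in place of 625. Leaving out each midbrain library in turn gave 2179 to 2307 genes higher and 1069 to 1139 lower, 499 to 781, 2297 to 2346 and 121 to 142 for the 3 steps in order, 533 to 543 against forebrain and 274 to 290 against hindbrain. Without the E10.5 libraries 1743 were higher and 1051 lower, and without those of E14.5 1796 and 993. The comparisons within the library sets, E14.5 against E11.5 and E13.5 against E10.5, were chosen after seeing the data. Replicate numbers are not stated to pair libraries, and deviations of same-numbered libraries correlated by 0.018 to 0.133; with the replicate number as a block 2239 genes were higher and 1105 lower, and no named call changed. Depth is unknown, so no limit of detection can be given for genes listed at 0.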
